A study of Mus musculus with 7 samples.

Results

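The autosomal collagen genes were examined in cultured mouse hippocampal neurons for regions enriched in 5-methylcytosine (5mC). Members were the protein-coding autosomal genes of RefSeq GRCm38.p6 whose symbol reads Col, a number, a and a number. There were 42 of them among 20661 autosomal protein-coding genes, and 376 of the 133337 enriched regions overlapped their gene bodies or the 1 kb on either side. Another 2 genes with such symbols, Col4a5 and Col4a6, lie on the X chromosome and were not counted. The neurons came from hippocampi of C57BL/6J embryos at E18.5 and were kept for 11 days in vitro. One group of 3 libraries was untreated, and the other group of 3 had received 55 mM KCl, which depolarises neurons, for 4 h. Both groups had been grown in neurobasal medium with L-glutamic acid and with AraC, which stops dividing cells. A pooled input library was not analysed here.

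Collagens are secreted or membrane-bound proteins built from 3 chains wound into a triple helix, and each gene encodes a chain. Fibrillar collagens form the banded fibrils of bone, skin and cartilage, FACIT collagens attach to the surface of those fibrils, and network collagens form sheets, of which type IV is the scaffold of basement membranes. In brain, collagens are best known from the meninges and the basement membranes of blood vessels, while neurons make some members of the transmembrane class, such as Col25a1. Methylation of cytosine in CG dinucleotides is frequent along gene bodies and rare in CG-rich promoters.

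MeDIP-seq, which pulls down 5mC-bearing DNA with an antibody before sequencing, is a method whose yield depends both on the methylation of the CG sites and on how many of them a fragment holds. Regions were called per library and then merged over libraries, and the summit height is the deposited height of the highest point of a call, a whole number of at least 6. Without read totals the depth of a library is unknown, and counting intervals could not be set. Called intervals ranged from 72947 to 87302 in the untreated libraries and from 34834 (replicate 3) to 93470 (replicate 1) with KCl. Separate cultures or animals are not mentioned in the labels, so all p-values measure the spread between libraries, and that spread may be technical. The regions do not measure expression, so the labelled cell type could not be checked from marker genes. In a bulk culture, methylation of fewer cells and less methylation per cell cannot be told apart.

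A promoter is shown here for 5 collagen genes with unlike starts. Col6a3 and Col9a2 had a region overlapping part of the promoter, Col17a1 had a region farther upstream, and Col8a2 and Col3a1 had none within 1 kb. The Col8a2 promoter held many CG dinucleotides and that of Col3a1 held none. Each line holds the 250 bases before the transcription start, 5′ to 3′ on the strand of the gene, from RefSeq GRCm38.p6, with CG dinucleotides in capitals.
Col6a3: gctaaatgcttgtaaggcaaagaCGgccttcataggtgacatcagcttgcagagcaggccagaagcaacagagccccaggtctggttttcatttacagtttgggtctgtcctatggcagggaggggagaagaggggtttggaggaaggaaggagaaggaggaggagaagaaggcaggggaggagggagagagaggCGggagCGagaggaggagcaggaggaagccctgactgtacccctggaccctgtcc
Col9a2: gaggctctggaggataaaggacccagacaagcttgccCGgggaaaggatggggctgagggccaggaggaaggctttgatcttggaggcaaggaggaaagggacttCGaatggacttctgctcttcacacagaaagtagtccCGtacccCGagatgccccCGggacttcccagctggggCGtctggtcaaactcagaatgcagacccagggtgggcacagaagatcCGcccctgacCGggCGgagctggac
Col17a1: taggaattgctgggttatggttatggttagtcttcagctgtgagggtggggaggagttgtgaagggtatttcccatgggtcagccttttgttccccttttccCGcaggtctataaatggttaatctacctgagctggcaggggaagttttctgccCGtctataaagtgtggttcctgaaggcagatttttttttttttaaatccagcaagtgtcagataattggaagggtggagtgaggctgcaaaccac
Col8a2: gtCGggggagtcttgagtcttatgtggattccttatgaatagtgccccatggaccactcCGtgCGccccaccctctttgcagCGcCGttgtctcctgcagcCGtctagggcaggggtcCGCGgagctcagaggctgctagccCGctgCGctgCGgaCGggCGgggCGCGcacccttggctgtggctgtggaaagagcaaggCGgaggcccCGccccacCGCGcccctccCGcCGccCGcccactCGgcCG
Col3a1: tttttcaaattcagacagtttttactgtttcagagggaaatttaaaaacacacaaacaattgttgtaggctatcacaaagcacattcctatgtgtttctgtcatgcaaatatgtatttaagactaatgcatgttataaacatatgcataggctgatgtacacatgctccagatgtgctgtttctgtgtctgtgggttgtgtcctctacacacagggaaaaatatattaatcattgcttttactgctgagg
The Col6a3 stretch lies at chr1:90843972-90844221 on the minus strand, that of Col9a2 at chr4:121039316-121039565 on the plus strand, that of Col17a1 at chr19:47692043-47692292 on the minus strand, that of Col8a2 at chr4:126286544-126286793 on the plus strand and that of Col3a1 at chr1:45311288-45311537 on the plus strand. The motif searched was CG, which reads the same on both strands, and 93.7% of the 20084 mouse promoters of this length hold it at least once. Col8a2 held 24, a number reached by 16.2% of those promoters. The counts were 9 in Col9a2 (reached by 54.1%), 3 in Col6a3 (78.0%), 2 in Col17a1 (85.4%) and 0 in Col3a1.

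Of the 33 collagen genes with a listed start, 5 (15.2%) had a region within 1 kb of it: Col9a1, Col6a3, Col9a2, Col7a1 and Col17a1. The share was 11.6% among 16423 other genes with a listed start. Col9a1, a chain of the cartilage FACIT collagen IX, had the one start region called in every library, from 254 to 990 bases downstream of the start (chr1:24177864-24178600). Its heights were 38, 37 and 29 untreated and 38, 29 and 21 with KCl, so the groups overlapped. Col6a3, the longest chain of the beaded-filament collagen VI, had a region across its start (chr1:90843784-90844219) with heights of 14 and 10 in untreated replicates 2 and 3, 18 in KCl replicate 1 and no call in the other 3 libraries. A second Col6a3 region farther upstream (chr1:90844685-90845056) had heights of 14, 11 and 23 untreated and 18 and 15 in KCl replicates 1 and 2. Col9a2, another collagen IX chain, had a region upstream, at positions −597 to −233 relative to its start (chr4:121038969-121039333), at 12 in untreated replicate 2 and 12 and 11 in KCl replicates 1 and 2. The Col17a1 region (chr19:47692964-47693365) was called in untreated replicates 1 and 2 only, at 10 and 13. The Col7a1 region (chr9:108954295-108954690) was called in untreated replicate 2 only, at 11. Apart from the Col9a1 region, the start regions were thus missing from at least 1 library. Their mean heights ran from 11 (Col7a1) to 16.2 (the upstream Col6a3 region), beside a median of 13.1 over collagen regions.

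The CG number of the promoters was then set beside the regions. Col9a2 had the most CG among promoters with a region within 1 kb, and none of the 18 collagen promoters with 10 or more CG had such a region. These 18 included the shared start of Col4a1 and Col4a2, where the 250 bases before the starts held 31 and 26 CG, and Col5a1, with 28. Among promoters of other genes, 8.78% of those with 10 to 19 CG and 5.16% of those with 20 or more had a region within 1 kb. Several genes have more than 1 listed promoter, which is why there were 36 collagen promoters for 33 genes. Among collagen promoters with fewer than 5 CG, 3 of 10 had a region within 1 kb, against 12.1% of such promoters of other genes. With 5 to 9 CG it was 2 of 8, against 17.9%. The Col9a1 start region, called in every library, lay next to a promoter with 0 CG in its 250 bases.

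Collagen genes held 7.52 regions per 100 kb over all libraries, and the other autosomal protein-coding genes held 6.89. At least 1 region was found in 41 of the 42 collagen genes (97.6%), against 66.7% of other genes. Collagen genes are long, with a median of 110 kb against 17.4 kb, and long genes nearly all held a region. Of 18 collagen genes between 100 and 200 kb, 17 held a region (94.4%), against 98.1% of other genes in that length range. In the same range the density was 7.42 per 100 kb in collagen genes and 7.33 in others. It was 6.26 in 6 collagen genes of 200 to 1000 kb (5.68 in others) and 11.0 in 3 of 50 to 100 kb (7.46 in others). From 20 to 50 kb it was 10.8 in 11 collagen genes and 8.16 in others, and below 20 kb it was 16.9 in 4 collagen genes and 9.53 in others. The gap was thus widest among the shortest members, which are few. Ranked within its own length range, a collagen gene was at or above the 50th percentile in 27 of 42 cases, at or above the 90th in 4 and at or below the 10th in 1.

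Library by library, the log2 ratio of collagen to other-gene density was 0.15, 0.05 and 0.19 in the untreated libraries and 0.15, 0.16 and −0.05 in the KCl libraries. The ratio was above 0 in 5 of 6 libraries, all but KCl replicate 3. The mean was 0.11 ± 0.09 (SD, n = 6), which did not pass the test (exact sign-flip permutation test over libraries, two-sided, p = 0.0625, adjusted over 4 contrasts 0.0833; smallest possible p 0.03125). With the other genes weighted by length range to match the collagen genes, the mean was 0.16 ± 0.08, and libraries ran from 0.03 (KCl replicate 3) to 0.23. It did not pass after adjustment either (exact sign-flip permutation p = 0.03125, adjusted p = 0.0625). The sign-flip test treats libraries, not genes, as the replicates.

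**Figure D1:**
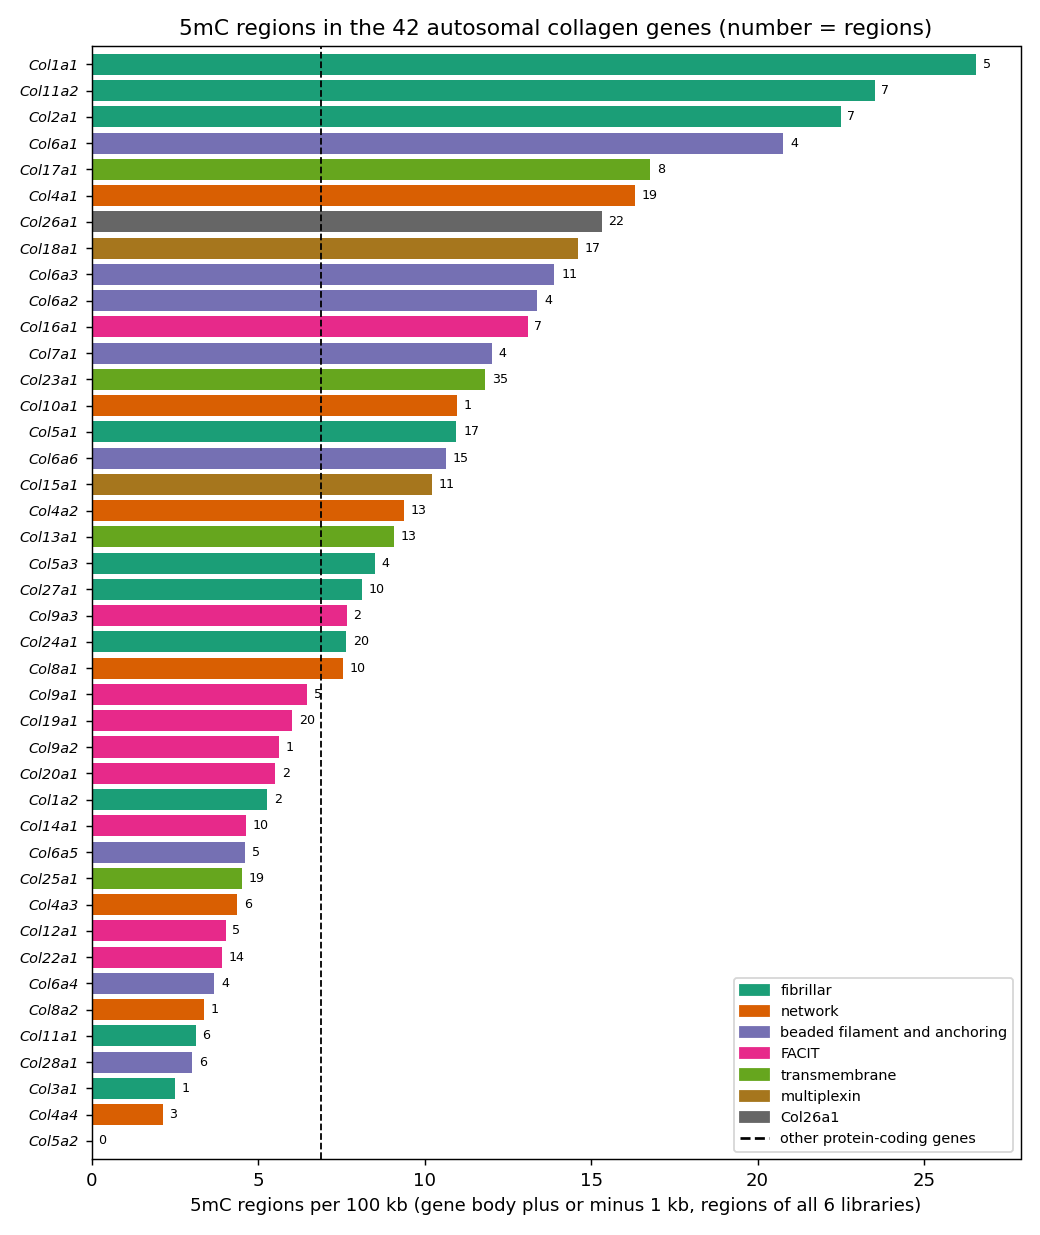
Horizontal bars give the regions per 100 kb of each collagen gene with 1 kb on either side, over all 6 libraries, coloured by collagen class, with the number of regions at the bar's end. The dashed line marks the other autosomal protein-coding genes at 6.89 per 100 kb; the bars run from 0 in Col5a2 to 26.6 in Col1a1.

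Density varied widely among the members. The 6 densest genes were Col1a1 (26.6 regions per 100 kb), Col11a2 (23.5), Col2a1 (22.5), Col6a1 (20.8), Col17a1 (16.8) and Col4a1 (16.3). The 6 with the most regions were Col23a1 with 35, Col26a1 with 22, Col19a1 and Col24a1 with 20 each, and Col25a1 and Col4a1 with 19 each. Col5a2 was the one member with no region. Of the 376 regions, 79 (21.0%) were called in all 6 libraries, against 20.5% of all active regions and 22.2% of the regions of other genes. Another 103 (27.4%) were called in 1 library, against 27.8% of the regions of other genes. The 79 lay in 28 genes, and 14 genes had no region that every library called. The median over collagen regions of the mean height was 13.1, against 13.5 for regions of other genes. No region was shared by 2 collagen genes.

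Fibrillar collagens spanned the whole range of density. Their 11 genes held 79 regions, 7.40 per 100 kb, of which 15 were called in all 6 libraries. Col1a1 (chr11:94936224-94953042), the alpha chain that makes up most of collagen I, was the shortest fibrillar gene and held 5 regions in 16819 bp. Its counts were 2, 4 and 2 untreated and 4, 2 and 2 with KCl, the same mean of 2.67 in both groups. Col11a2, a cartilage collagen XI chain, held 7 regions in 27766 bp, with counts of 5, 6 and 5 untreated and 5, 4 and 2 with KCl. Col2a1, the main cartilage collagen, also held 7, none of them called in every library, with counts of 6, 6 and 3 untreated and 5, 5 and 2 with KCl. In Col11a2 and Col2a1 alike KCl replicate 3 was lowest and the groups overlapped. Col24a1, the longest fibrillar gene at 259542 bp, held 20 regions at 7.65 per 100 kb. At the other end were Col11a1 with 3.12 per 100 kb, Col3a1 with 2.49 and Col5a2 with 0, although Col11a1 and Col5a2 are each over 100 kb long. Col3a1 and Col5a2 lie side by side on chromosome 1, and the 192 kb they span held 1 region, in Col3a1 (chr1:45331791-45332395), with heights of 15, 21 and 12 untreated and 20 and 15 in KCl replicates 1 and 2.

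Network collagens, which include the basement membrane chains of type IV, held 53 regions in 7 genes, 7.58 per 100 kb. All 6 libraries called 6 of them (11.3%), against 22.2% of the regions of other genes. A length of 500 bp was reached by 1 of the 53 (1.89%), against 17.6% of the regions of other genes. Neither difference was tested. Col10a1, the shortest network gene at 7105 bp and the collagen of growth-plate cartilage, held 1 region, which also lies in the window of the neighbouring gene Nt5dc1. The other network extremes were the 2 autosomal type IV pairs, whose genes run head to head from a shared start. Col4a1 and Col4a2, the chains of most vascular basement membranes, held 32 regions in 251 kb, 12.7 per 100 kb. Col4a3 and Col4a4, the chains of glomerular basement membrane, held 9 in 274 kb, 3.27 per 100 kb. Col4a4, the longest network gene, had 3 regions, each called in 1 library.

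Col4a1 had 19 regions and none that every library called. Its counts were 7, 9 and 15 untreated and 15, 3 and 1 with KCl, so replicates of both groups spread widely and overlapped. The highest Col4a1 region (chr8:11206214-11206542) had heights of 24, 40 and 15 untreated, 22 in KCl replicates 1 and 2, and no call in KCl replicate 3. Col4a2 had 13 regions, 2 of them called in every library, with counts of 9, 10 and 6 untreated and 7, 9 and 3 with KCl. No region lay within 1 kb of the shared Col4a1 and Col4a2 start, and the nearest on the Col4a1 side was at chr8:11308229-11308562.

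**Figure D2:**
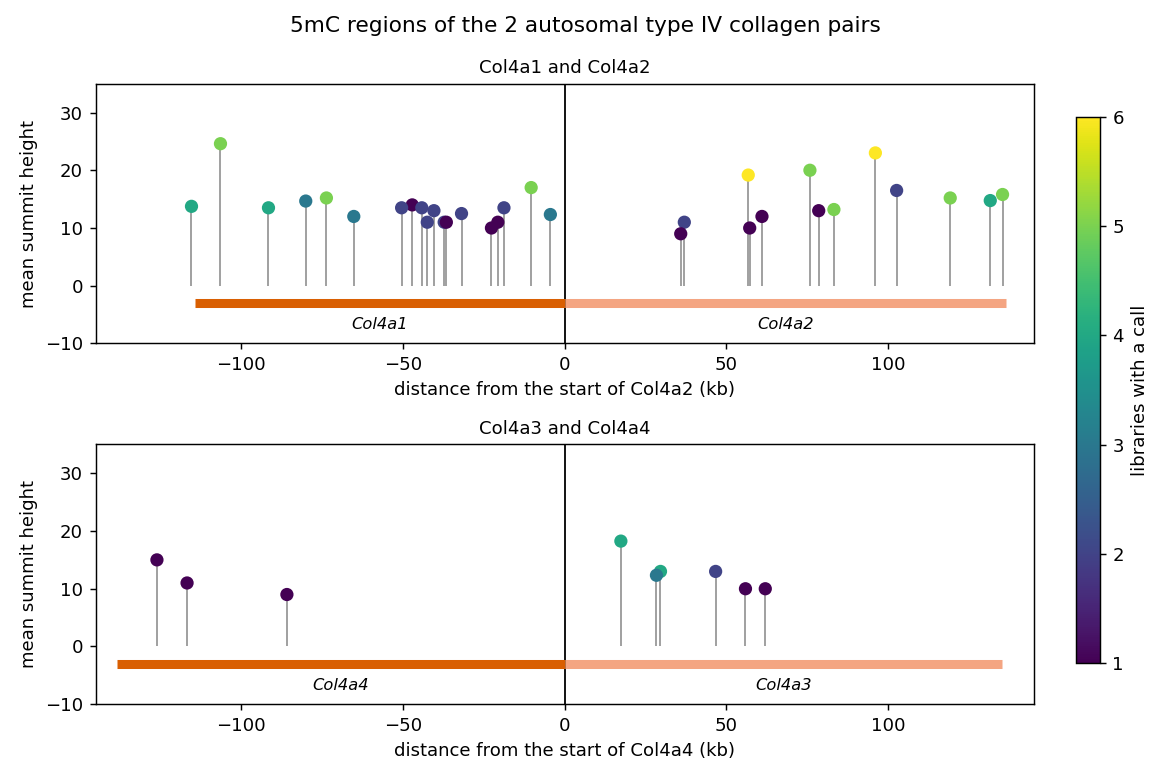
Each stem is a 5mC region placed by its distance (kb) from the start of Col4a2 (upper panel) or Col4a4 (lower panel), with its mean summit height over the libraries that called it and its colour giving the number of libraries. The bars under the axis are the genes; the upper pair held 32 regions and the lower pair 9, and both shared starts are free of regions.

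Beaded filament and anchoring collagens held 53 regions in 8 genes, 7.38 per 100 kb. Of these, 14 (26.4%) were called in all 6 libraries, against 22.2% of the regions of other genes. Col6a1, the shortest of them at 17253 bp and an obligatory chain of collagen VI, held 4 regions at 20.8 per 100 kb. Its counts were 2, 4 and 1 untreated and 3, 3 and 1 with KCl. Col28a1, the longest at 196610 bp, held 6 at 3.02 per 100 kb, 5 of them called in 1 library. Between these, the 3 neighbouring collagen VI genes Col6a4, Col6a5 and Col6a6 on chromosome 9 held unequal numbers: Col6a6 held 15 regions (10.7 per 100 kb), Col6a5 5 (4.61) and Col6a4 4 (3.69).

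FACIT collagens had the lowest density of any class, 66 regions in 9 genes or 5.33 per 100 kb. Col19a1, which occurs in basement membrane zones and is known from hippocampal interneurons, held 20 regions over 330240 bp, 5 of them called in every library. Col22a1, the longest FACIT gene at 355185 bp, held 14, and Col9a2, the shortest at 15760 bp, held the 1 upstream region given above. Col16a1 was the densest FACIT gene at 13.1 per 100 kb. Col9a3 was the one collagen gene whose counts of regions did not overlap between groups. It had 1 call in each untreated library and none with KCl, from 2 regions, 1 of which also lies in the window of its neighbour Tcfl5. This is 1 of 41 genes with a region (2.44%), and 2.39% of other genes with a region had every KCl count below every untreated count. In the opposite direction there were 0 collagen genes and 0.0218% of other genes.

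Transmembrane collagens held 75 regions in 4 genes, 8.26 per 100 kb. Of these, 19 (25.3%) were called in all 6 libraries, against 22.2% of the regions of other genes. Col23a1 held 35 regions, 7 called in every library and 14 in 1, with counts of 25, 19 and 18 untreated and 22, 15 and 7 with KCl. Col25a1, the longest collagen gene at 419527 bp and the source of a protein found in amyloid plaques, held 19 at 4.51 per 100 kb, with counts of 15, 11 and 16 untreated and 15, 11 and 7 with KCl. Col17a1, the shortest of the class at 45702 bp and a hemidesmosome protein of skin, held 8 at 16.8 per 100 kb. Its highest region (chr19:47648422-47648989) had heights of 62, 62 and 46 untreated and 67, 45 and 29 with KCl. The multiplexins, basement membrane collagens whose cleavage releases endostatin from Col18a1, held 17 regions in Col18a1 (114353 bp, 14.6 per 100 kb) and 11 in Col15a1 (105513 bp, 10.2). Col26a1, which fits none of these classes, held 22 regions at 15.3 per 100 kb, 7 of them called in all 6 libraries. Its counts were 15, 14 and 15 untreated and 18, 14 and 7 with KCl.

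Within each library, fibrillar genes had more regions per 100 kb than FACIT genes. Fibrillar densities were 4.96, 5.15 and 3.75 untreated and 5.24, 2.90 and 1.87 with KCl, and FACIT densities were 3.63, 3.23 and 2.82 untreated and 3.79, 2.74 and 1.13 with KCl. The log2 ratio averaged 0.47 ± 0.23 (SD, n = 6) and was above 0 in 6 of 6 libraries, but it did not pass the test after adjustment (exact sign-flip permutation p = 0.03125, the smallest it can give; adjusted p = 0.0833). Fibrillar against network genes gave 0.17 ± 0.31 (5 of 6 above 0, exact permutation p = 0.219, adjusted p = 0.219). Fibrillar against transmembrane genes gave −0.27 ± 0.23 (5 of 6 below 0, exact permutation p = 0.0625, adjusted p = 0.0833). With an equal number of the highest intervals taken from each library, all 3 class contrasts passed, at 0.57, 0.39 and −0.58 (exact sign-flip permutation, adjusted p = 0.0417 each). Gene length was not matched in any class contrast. The median length was 45.1 kb in fibrillar, 75.15 kb in FACIT, 130 kb in network and 218 kb in transmembrane genes. With regions of at least 500 bp alone, fibrillar against network genes rose to 3.09 and passed (exact sign-flip permutation, adjusted p = 0.0417). Network genes held 1 region of that length, called in every library. All 6 signs rest on that region, so this test cannot speak to the class. At this length fibrillar against FACIT genes (0.55) also passed (exact sign-flip permutation, adjusted p = 0.0417), whereas fibrillar against transmembrane genes moved from −0.27 to −0.0054 (exact sign-flip permutation p = 0.812).

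**Figure D3:**
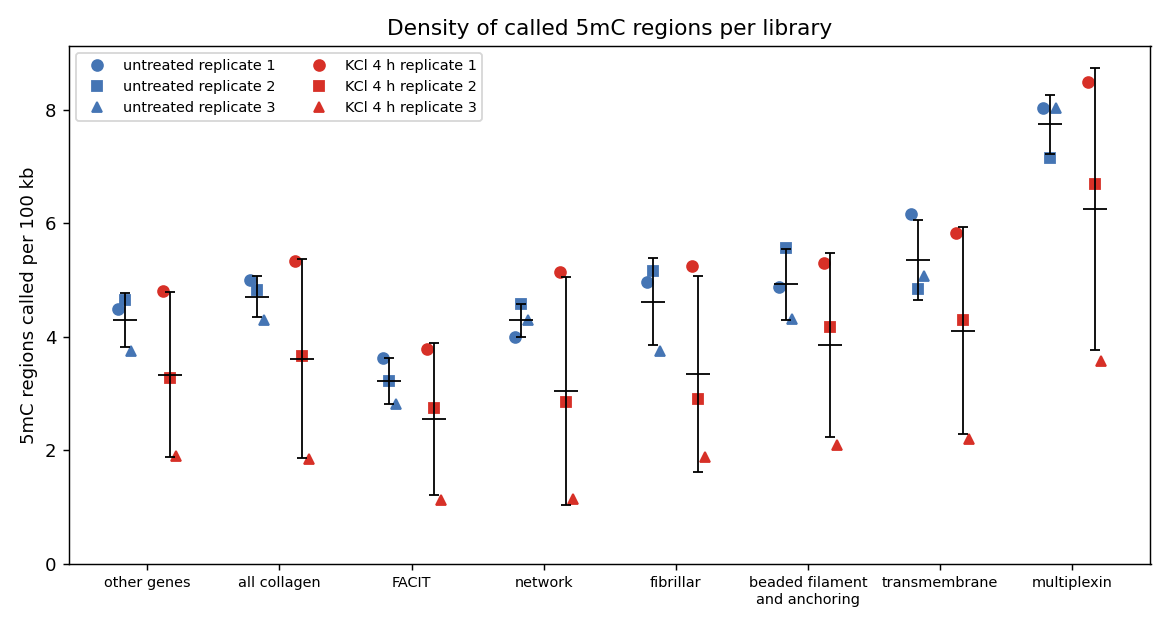
Points give the called regions per 100 kb of each library in other genes, all collagen genes and 6 collagen classes (Col26a1 left out), blue for untreated and red for KCl, with marker shape for the replicate. Horizontal bars are group means with SD (n = 3); KCl replicate 3 is lowest in every column, and within each library FACIT genes lie below fibrillar genes.

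Along the genes, regions were spread nearly evenly. In the 30 collagen genes of at least 20 kb with a listed start, the gene body was divided into 3 equal parts: 34.6% of 295 regions fell in the 5′ part, 34.9% in the middle and 30.5% in the 3′ part. In 7539 other genes of that length the shares were 29.4%, 31.9% and 38.7%. A region within 1 kb of the 3′ end was found in 6 of the 33 collagen genes with a listed start (18.2%: Col4a1, Col4a2, Col6a5, Col10a1, Col6a2 and Col6a1), against 18.8% of other genes.

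The 6 collagen regions with the highest mean height lay in gene bodies and were called in every library. The highest was in Col6a2 (chr10:76596135-76597061), near the 3′ end of this collagen VI gene, with heights of 102, 101 and 82 untreated and 109, 81 and 48 with KCl. Its mean of 87.2 exceeded that of 99.7% of all active regions. Next came Col26a1 (chr5:136751856-136752577) with 86, 94 and 70 untreated and 82, 77 and 55 with KCl. Both regions were lowest in KCl replicate 3, and their groups overlapped. Col22a1, a FACIT collagen of muscle-tendon junctions, had heights of 80, 88 and 66 untreated and 84, 51 and 54 with KCl (chr15:72006629-72007270). Col1a1 (chr11:94950790-94951530) had 63, 70 and 63 untreated and 79, 50 and 34 with KCl. In these genes KCl replicate 1 was high, like the untreated libraries or above them, and the other KCl replicates were lower. Col6a3 (chr1:90827723-90828308) had 52, 68 and 63 untreated and 69, 54 and 43 with KCl. Col19a1 (chr1:24453323-24453943) had 61, 63 and 50 untreated and 69, 66 and 30 with KCl. All 6 overlapped between groups, and their changes with KCl relative to the median region lay between −0.09 and 0.09 on the log2(height + 1) scale.

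**Figure D4:**
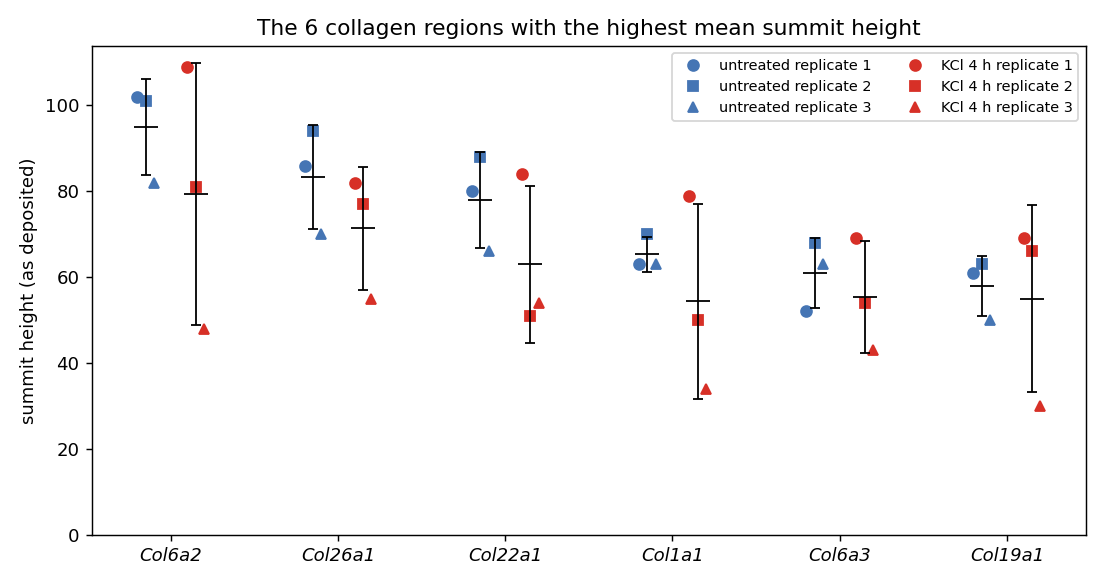
Points are the deposited summit heights of the 6 highest collagen regions in each library, blue for untreated and red for KCl, with marker shape for the replicate; bars are group means with SD (n = 3). The groups overlap at every region, from Col6a2 (48 to 109) to Col19a1 (30 to 69).

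The main comparison asked whether KCl changed methylation at collagen genes. Untreated libraries called 250, 241 and 215 collagen regions and KCl libraries 267, 183 and 92. KCl replicate 1 had the most and KCl replicate 3 the fewest, so the groups overlapped. The means were 235 ± 18.2 and 181 ± 87.5 (SD, n = 3), a difference of −54.7 that did not exceed the spread (exact permutation test, two-sided, p = 0.4; smallest possible p 0.1). Without KCl replicate 3 the difference was −10.3, and with an equal number of the highest intervals from each library it was −7.33. That library called 25.7% of all active regions and 24.5% of the collagen regions. Relative to other genes, the collagen log2 ratio differed by −0.05 between groups (exact permutation p = 0.6), and by 0.02 without KCl replicate 3.

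Heights were tested with limma in the regions called in all 6 libraries whose mean height reached the 25th percentile, 18.7. Of the 376 collagen regions 63, in 25 genes, passed these filters. Among collagen regions called in all 6 libraries, the lowest one kept had a mean height of 18.8 and the highest one left out 18.3. The median region of the whole table was lower with KCl by a log2 change of −0.25, so changes are given relative to it, with the SE from the fit in which each library was centred on its median. No collagen region passed an adjusted p of 0.05 (0 of 63), nor did any of all 20537 tested regions (0%); the lowest collagen adjusted p was 0.932, and 1.00 after centring. At an unadjusted p under 0.05, 3 collagen regions (4.76%) were lower with KCl and 0 higher, against 1.12% and 0% of all tested regions. That lower count was 18 of 67 without KCl replicate 1, where 4325 of all 20796 tested regions were lower. It was 1 of 96 without KCl replicate 3, where 186 of all 31004 were lower. It was 0 without KCl replicate 2 or any one untreated replicate, where 40 to 140 of all tested regions were lower. After centring, 2 of 63 collagen regions (3.17%) were higher and 2 lower, against 1.97% and 1.67% of all tested regions. Without KCl replicate 1, 0 of 67 were then higher and 6 lower, against 507 and 566 of all 20796. Without each other library in turn, 0 to 3 collagen regions were higher and 1 to 3 lower. Among all tested regions 377 to 860 were then higher and 224 to 444 lower. Relative to the median region, 26 collagen regions lay above and 37 below, with a median of −0.04 and a range from −0.54 to 0.46. The central 90% of all tested regions ran from −0.32 to 0.31 and held 54 of the 63.

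The 5 collagen regions below the median region with the lowest p after centring were in Col23a1, Col4a2, Col19a1, Col6a4 and again Col23a1. The first Col23a1 region (chr11:51395389-51395959) had heights of 38, 35 and 35 untreated and 36, 21 and 11 with KCl, which gave −0.54 ± 0.21 (SE) for the relative log2 change. The Col4a2 region (chr8:11408648-11409166) had 27, 32 and 26 untreated and 26, 14 and 13 with KCl, or −0.47 ± 0.22. In both, KCl replicate 1 stood within or at the edge of the untreated values while replicates 2 and 3 were lower. The Col19a1 region (chr1:24419225-24419731) had 23, 27 and 27 untreated and 26, 16 and 8 with KCl (−0.48 ± 0.24). The Col6a4 region (chr9:106074739-106075312) had 45, 58 and 43 untreated and 47, 34 and 22 with KCl (−0.30 ± 0.16). The second Col23a1 region (chr11:51525251-51525784) had 29, 23 and 30 untreated and 36, 10 and 12 with KCl (−0.44 ± 0.26). This last change was −0.78 without KCl replicate 1, −0.10 without KCl replicate 2 and −0.29 without untreated replicate 3. Without KCl replicate 3 the first Col23a1 region was at −0.36 and the Col19a1 region at −0.30. All 5 overlapped between groups, with a limma adjusted p of 0.932 before centring and 0.9999 after it.

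In the other direction the lowest p-values after centring were in Col19a1, Col24a1, Col6a6, Col18a1 and Col14a1. A second Col19a1 region (chr1:24560225-24560674) had heights of 29, 26 and 25 untreated and 47, 31 and 19 with KCl, which gave 0.43 ± 0.20 (SE) for the relative log2 change. Col19a1 thus appeared at both ends, with one region above and one below the median region. Col24a1 (chr3:145404100-145404627) had 18, 22 and 16 untreated and 33, 25 and 12 with KCl (0.46 ± 0.23). Col6a6 (chr9:105708959-105709479) had 33, 41 and 20 untreated and 44, 35 and 20 with KCl (0.31 ± 0.20). In each of these regions the KCl values overlapped the untreated ones. Col18a1 (chr10:77160879-77161331) had 21, 26 and 19 untreated and 41, 18 and 15 with KCl (0.28 ± 0.23). Col14a1 (chr15:55408648-55409162), in a FACIT gene of skin and tendon, had 35, 33 and 28 untreated and 39, 39 and 20 with KCl (0.22 ± 0.19). Single libraries weighed on these changes too: Col18a1 was at 0.07 without KCl replicate 1 and 0.45 without KCl replicate 2, Col6a6 at 0.11 without untreated replicate 3, and Col14a1 at 0.08 without KCl replicate 2. Before centring, the limma adjusted p of the 5 ran from 0.932 to 0.987, and the Col14a1 log2 change was −0.03. After centring, the limma adjusted p was 0.9999 for all 5.

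**Figure D5:**
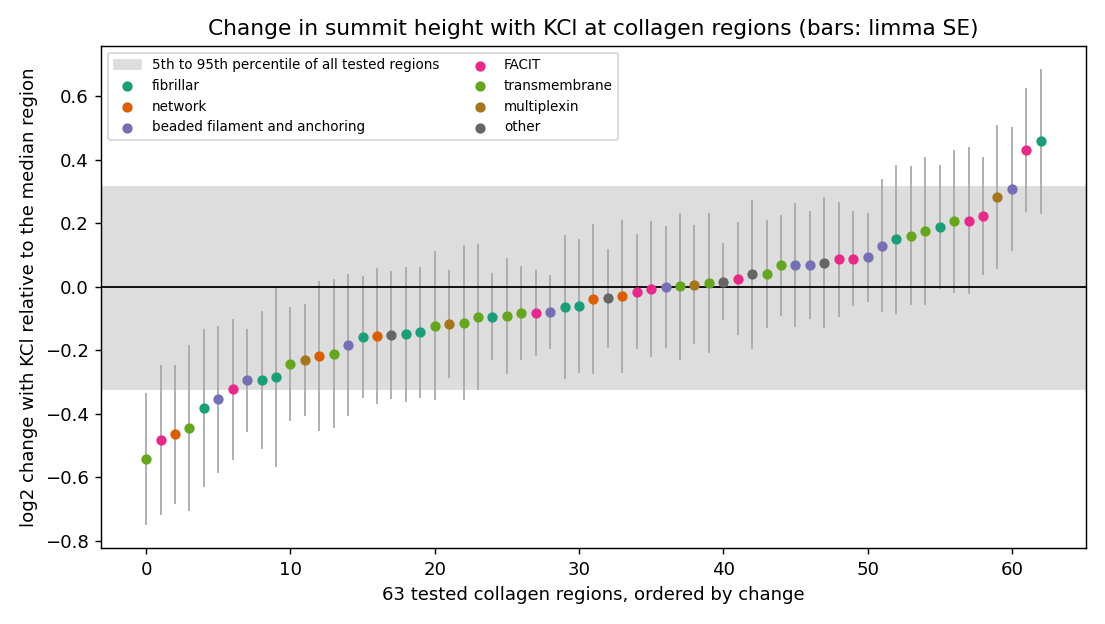
Points are the log2 changes in summit height with KCl, relative to the median region, of the 63 tested collagen regions in rising order and coloured by class, with limma SE bars. The grey band holds the central 90% of all 20537 tested regions (−0.32 to 0.31), and 54 of the 63 points lie in it. The ends of the range (−0.54 and 0.46) have SEs of 0.21 and 0.23, within the 0.12 to 0.28 of all 63.

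In deposited heights, 4 of the 79 collagen regions called in all 6 libraries (5.06%) had every KCl height below every untreated height, against 4.66% of all such regions, and 0 had every KCl height above, against 0.124%. In Col5a1 (chr2:27989143-27989671), a chain that starts collagen I fibrils, heights were 34 in each untreated library and 30, 26 and 21 with KCl. A second Col5a1 region (chr2:28032898-28033332) had 21, 18 and 24 untreated and 15, 16 and 16 with KCl. The others were in Col1a1 (chr11:94942874-94943485; 37, 27 and 24 untreated, 23, 23 and 14 with KCl) and Col16a1 (chr4:130073982-130074391; 28, 29 and 25 untreated, 23, 15 and 17 with KCl). The share is near the background. Called in every untreated library and in no KCl library were 2 collagen regions (0.532%, against 1.01% of all active regions), in Col4a1 (chr8:11308229-11308562, heights 16, 11 and 10) and Col18a1 (chr10:77119529-77119821, heights 10, 11 and 16). The reverse was seen in 0 collagen regions, against 0.0367%. The mean log2 height of the 79 regions, relative to all regions called in every library, was 0.02, 0.02 and 0.04 untreated and 0.02, −0.05 and −0.05 with KCl, a difference of −0.05 (exact permutation p = 0.3).

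Genes that make, bind or break down collagen had more regions per 100 kb than collagen genes themselves, a difference that was not tested. Gene length was not matched here. Among other autosomal protein-coding genes density went from 9.53 below 20 kb to 5.68 at 200 to 1000 kb, and collagen genes below 20 kb held 16.9. The 17 genes of collagen biosynthesis and folding held 81 regions at 12.4 per 100 kb, most in the prolyl 4-hydroxylase gene P4ha3 and the lysyl hydroxylase gene Plod1, with 10 each. The 13 genes of processing and crosslinking held 115 at 10.3 per 100 kb, led by the procollagen proteinase genes Tll2 with 26 and Adamts2 with 22. The 9 receptor genes held 56 at 8.03 per 100 kb, with 17 in Itga11, and 9 each in Ddr1 and Itga1. The 7 genes of collagen-degrading proteases held 14 at 12.7 per 100 kb, of which Mmp9 had 5 and Mmp14 4. The 15 basement membrane partners of type IV collagen held 188 at 10.1 per 100 kb, with 33 in the perlecan gene Hspg2 and 28 in the laminin gene Lama1. In each of the 5 lists 0 tested regions passed an adjusted limma p of 0.05 in either direction (of 11, 19, 10, 1 and 25 tested, lowest adjusted p 0.932), as among all tested regions (0%). The median relative change was 0.02, 0.12, −0.02, 0.11 and −0.02 in the same order.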

How the data were processed

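The deposited file held 13 tracks of genome positions, per the file headers: called intervals and summits for each of 6 MeDIP libraries and the active regions merged over them. Summit heights were deposited by the authors as whole numbers with no stated unit or scaling. Library construction and read analysis were done by a company, per the labels' protocols. The submitters' processing notes name BWA, SICER and mm10, with versions and settings not given in the sources used here.

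Each active region took, per library, its highest summit, and no value where the library had no call. Regions were assigned to RefSeq GRCm38.p6 genes with 1 kb on either side. The gene table gives no strand for 9 collagen genes, which were left out of the counts at starts, ends and parts of genes. The members, classes and gene lists were chosen with earlier results of these data known. Named were the 6 densest genes and the 6 with the most regions, genes with no region or a start region, the shortest and longest of each class, the 6 highest regions, the 5 of lowest p in each direction, and the 2 pathway genes with the most regions per list. Others were named after their values were seen.

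Heights were compared as log2(height + 1) with limma 3.58.1 (trend) in R 4.3.3, with Benjamini-Hochberg adjustment over the 20537 regions tested. Values per library were compared by exact permutation and sign-flip tests. Counting and fitting were tested on simulated data. The titles give replicate numbers, which were used as pairs in alternative tests only. Deviations of same-numbered untreated and KCl libraries correlated weakly, at 0.11, 0.11 and 0.15, and those of other pairs at −0.09 to −0.02.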

Additional observations from a re-analysis of the deposited data

How the results depend on the processing

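The number of collagen regions was 376, but 163 with an equal number of the highest intervals per library and 63 with regions of at least 500 bp (both added after seeing the data), and 348 to 376 when each library was left out. With an equal number of intervals, fibrillar against network, FACIT and transmembrane genes became 0.57, 0.39 and −0.58 and passed, with gene length not matched. With regions of at least 500 bp, collagen against other genes (0.11) and fibrillar against network (3.09) and FACIT genes (0.55) passed. The network result rests on 1 network region of this length, called in every library, so that test cannot speak to the class. Fibrillar against transmembrane genes moved to −0.0054 (exact permutation p = 0.812), and the cause was not tested. Leaving out each library moved these 4 contrasts over 0.09 to 0.14, 0.07 to 0.25, 0.42 to 0.55 and −0.34 to −0.21; a sign-flip test over 5 libraries cannot pass. The KCl difference in the collagen ratio turned to 0.0536 with regions of at least 500 bp and to 0.0209 without KCl replicate 3. It was −0.106 with an equal number of intervals, and leaving out each library gave −0.0872 to 0.0209. None of these could pass the exact permutation test at 0.05, as its smallest possible p is 0.1. When each library was left out, the KCl difference in region number ranged from −97.8 (without KCl replicate 1) to −10.3 (without KCl replicate 3), and the relative height from −0.07 to −0.03. With an equal number of intervals the difference in number was −7.33.

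With the replicate number as a block, the difference in region number was −54.7 and in the ratio −0.05 (3 pairs, smallest possible p 0.25), and 0 collagen regions passed limma; the pairing changed no call. In all 13 alternatives of the limma fit 0 collagen regions passed. Heights of unknown scaling and depth limit all of these comparisons.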

Other observations

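Regions also lay in genes that mark brain cell types, at 6.44 per 100 kb in 5 neuron markers, 11.5 in 4 astrocyte, 14.5 in 3 oligodendrocyte, 9.45 in 4 microglia and 14.0 in 5 endothelial and mesenchymal markers. Single genes weighed on these densities. Rbfox3, the gene of the neuronal marker NeuN, held 41 of the 52 neuron-list regions, more than any collagen gene. Map2, in the same list, held 4 (1.48 per 100 kb). The endothelial gene Pecam1 held 12 of the 19 regions in its list, and the astrocyte gene Slc1a3 10 of 19. No region was found in 2 of the 5 endothelial and mesenchymal markers, 1 of the 3 oligodendrocyte and 1 of the 4 microglia markers. In these 5 lists 0 tested regions (of 7, 2, 4, 3 and 1) passed an adjusted limma p of 0.05.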
